A study of Sus scrofa with 13 samples.

Results

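The slow fibre contractile genes were followed by RNA-seq in the longissimus lumborum, the loin muscle, of 13 pigs. The list held 10 gene symbols (MYH7, MYL2, MYL3, TNNT1, TNNI1, TNNC1, TPM3, ATP2A2, CASQ2 and MB), and a gene entered when its symbol matched an Ensembl gene identifier in the count tables of both breeds. Of the 10 genes, 5 matched among 25322 identifiers: MYH7, MYL3, TNNT1, TNNI1 and TNNC1. MYL2, TPM3, ATP2A2, CASQ2 and MB were not analysed here. All 5 matched genes passed the filter on low counts in every comparison, so no member was lost to it.

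The pigs were females aged 6 months of 2 sire-line breeds, Hampshire and Pietrain, chosen within each breed for a high or a low weight of the loin at dissection. There were 3 Hampshire pigs with high loin weight (pigs 8, 9 and 10) and 3 with low loin weight (pigs 1, 2 and 3). There were 4 Pietrain pigs with high loin weight (pigs 1, 2, 6 and 7) and 3 with low loin weight (pigs 3, 5 and 8). Pig numbers run separately in each breed. No pig was treated, and each group is a class of naturally differing animals at the end of fattening.

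Skeletal muscle is built of slow and fast fibres, each with its own set of contractile protein isoforms. In the thick filament, MYH7 encodes the slow (type I, beta) myosin heavy chain, the motor itself, and MYL3 the slow essential light chain bound to its neck. In the thin filament, the slow troponin complex switches contraction on: TNNC1 binds calcium, TNNI1 inhibits the actin filament at rest, and TNNT1 anchors the complex to tropomyosin. The longissimus of the pig is mostly a fast, glycolytic muscle in which slow fibres lie in small islands. MYH7, MYL3 and TNNC1 are also genes of heart muscle.

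The genes were ENSSSCG00000002029 (MYH7), ENSSSCG00000011325 (MYL3), ENSSSCG00000025353 (TNNT1), ENSSSCG00000024061 (TNNI1) and ENSSSCG00000011441 (TNNC1). The authors' tables placed MYH7 on chromosome 7, from 81066278 to 81088373 of the Sscrofa10.2 assembly, a span of 22096 bp. The reference name table gives the same identifier as MYH6, the neighbouring cardiac myosin gene, so reads of both genes may be joined under it. The other 4 genes were named by the reference table, without coordinates in the tables used here.

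The total number of counted reads ranged from 11312755 to 20134612 per pig. Pigs of 1 group differed beyond the sampling noise of counting in all 15 pairs. Levels are given as TMM-normalized CPM, the counts as CPM after scaling between libraries. They are compared between pigs for 1 gene, and not between genes, because they are not corrected for transcript length. The muscle identity of the samples was plain: the summed level of 5 skeletal muscle genes (ACTA1, CKM, DES, MYH1 and MYLPF) was 94824.8 to 247523.1 CPM. The 2 cardiac markers that matched, TNNT2 and NPPB, summed to between 0.489 and 63.6 CPM.

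In Hampshire, all 5 slow fibre genes stood higher at high loin weight, by 2.25-fold for MYH7, by 3.33-fold for MYL3 and by 4.17 to 4.67-fold for the troponin genes. In Pietrain, none of the 5 passed the test, and the pigs of each group were spread over 11.6 to 639-fold. The Pietrain pig 5 with low loin weight had almost no reads of any of the 5 genes.

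MYH7, the slow myosin motor, was measured in Hampshire pigs with high loin weight at 6960, 3554 and 5289 CPM in pigs 8, 9 and 10. In Hampshire pigs with low loin weight it was at 1310, 3573 and 2132 CPM in pigs 1, 2 and 3. The groups overlapped by a single pair, low pig 2 lying just above high pig 9. In Pietrain pigs with high loin weight MYH7 was at 778.6, 6322, 340.0 and 5804 CPM in pigs 1, 2, 6 and 7. In Pietrain pigs with low loin weight it was at 4198, 6.57 and 3037 CPM in pigs 3, 5 and 8. High pigs 2 and 7 and low pigs 3 and 8 thus sat together at the top of the breed, high pigs 1 and 6 lay below them, and low pig 5 lay far below all others.

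MYL3, the slow light chain, had 1477, 1609 and 813 CPM in Hampshire pigs 8, 9 and 10 with high loin weight. The Hampshire pigs 1, 2 and 3 with low loin weight had 268, 569 and 332 CPM of MYL3. The Hampshire groups did not overlap for this gene. In Pietrain MYL3 reached 124, 758, 57.1 and 928.0 CPM in high pigs 1, 2, 6 and 7. It was at 643, 1.58 and 415 CPM in low pigs 3, 5 and 8, so the low group spanned the whole high group apart from its 2 highest pigs.

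Among the troponins, TNNT1 was at 3714, 3223 and 2363 CPM in Hampshire pigs 8, 9 and 10 with high loin weight. It was at 487, 1064 and 563 CPM in Hampshire pigs 1, 2 and 3 with low loin weight. The lowest high pig was above the highest low pig. In Pietrain, TNNT1 was at 213.5, 1620, 142 and 1655 CPM in high pigs 1, 2, 6 and 7. The Pietrain low pigs 3, 5 and 8 had 1351, 2.77 and 1147 CPM of TNNT1, and the groups overlapped.

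TNNI1, the inhibitory subunit, had 2854, 2269 and 1785 CPM in Hampshire high pigs 8, 9 and 10. In Hampshire low pigs 1, 2 and 3 it had 333, 757 and 385 CPM, again without overlap. TNNI1 was at 141, 1018, 75.5 and 1041 CPM in Pietrain high pigs 1, 2, 6 and 7. It was at 791, 3.80 and 645 CPM in Pietrain low pigs 3, 5 and 8.

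TNNC1, the calcium-binding subunit, had 2796, 2292 and 1450 CPM in Hampshire high pigs 8, 9 and 10. It had 437, 645 and 477 CPM in Hampshire low pigs 1, 2 and 3, which was the tightest of the Hampshire low groups. The Pietrain high pigs 1, 2, 6 and 7 had 215, 1442, 132 and 1588 CPM of TNNC1. The Pietrain low pigs 3, 5 and 8 had 1288, 13.0 and 1125 CPM, and low pig 5 was again the lowest of all 13 pigs.

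**Figure D1:**
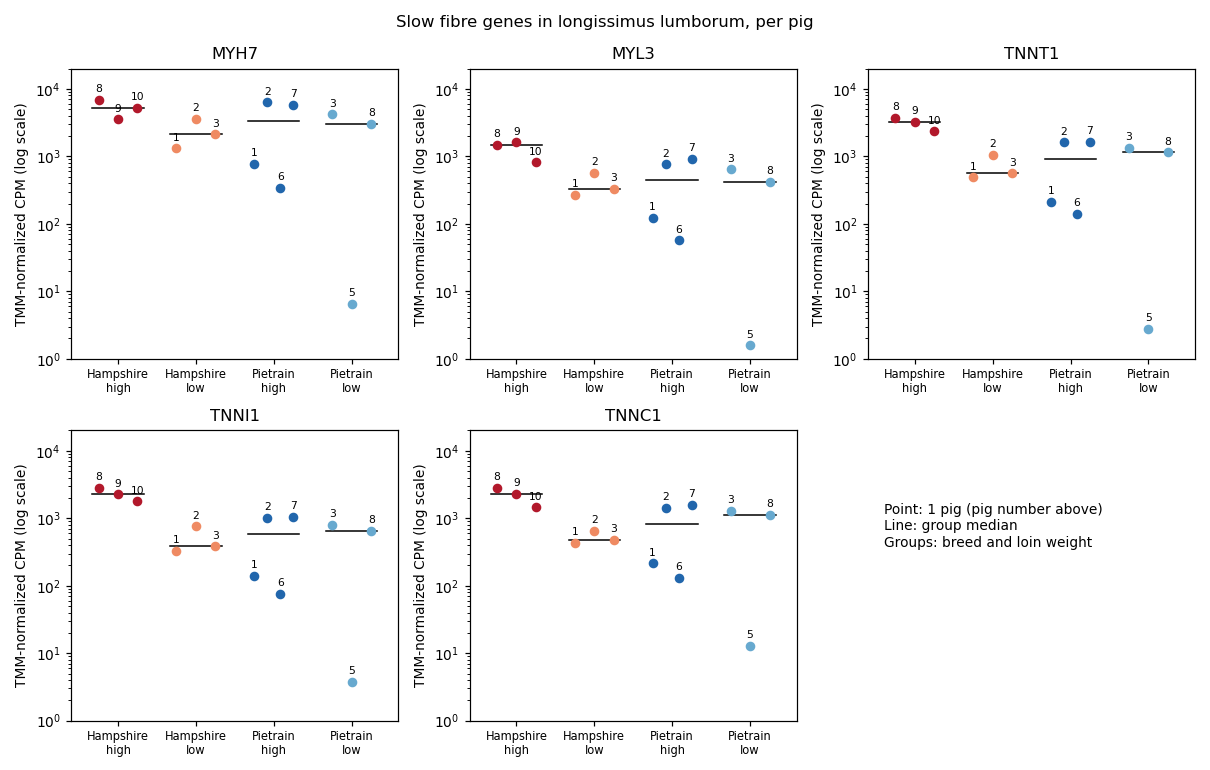
TMM-normalized CPM (log axis) of the 5 slow fibre genes in each pig, by breed and loin weight, with the pig number above each point and a line at the group median. Hampshire high pigs lie above Hampshire low pigs in every panel except MYH7, where pigs 9 and 2 are level, and Pietrain low pig 5 lies at 1.58 to 13.0 CPM.

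The first comparison asked whether the genes differed with loin weight in Hampshire. Of 12228 genes tested with edgeR's quasi-likelihood test, 1468 (12.0%) were DEGs with higher expression at high loin weight. A DEG needed a fold of 1.2 or more and an adjusted p (Benjamini-Hochberg) below 0.05. All 5 slow fibre genes were among them. MYH7 differed by a log2 fold change of 1.17 ± 0.37 (SE), with an edgeR adjusted p of 0.0469. MYL3 differed by 1.73 ± 0.33 on the log2 scale, with an edgeR adjusted p of 0.00855. The troponin genes differed more: TNNT1 by 2.13 ± 0.32, TNNI1 by 2.22 ± 0.33 and TNNC1 by 2.06 ± 0.27 on the log2 scale. Their edgeR adjusted p-values were 0.00377, 0.00372 and 0.00255.

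The median log2 fold change of the 5 genes was 2.06, beside 0.0289 over all genes tested. For MYL3 and the 3 troponin genes the Hampshire groups did not overlap, a state found in the same direction for 2743 of the 12228 genes (22.4%). An exact permutation test (2-sided) on log2 CPM gave p = 0.1 for these 4 genes, the smallest value that 3 pigs against 3 can give, and p = 0.2 for MYH7. The call on MYH7 was the weakest. It was lost when any 1 Hampshire pig other than low pig 2 was left out, with edgeR adjusted p-values of 0.0507 to 0.148, and with scaling by total counts alone (edgeR adjusted p = 0.107). When all 13 pigs were put in 1 fit, which shares 1 estimate of the spread with Pietrain, none of the 5 Hampshire calls was kept, at edgeR adjusted p-values of 0.192 to 0.545. The log2 fold changes in that fit were 1.17 for MYH7, 1.74 for MYL3, 2.14 for TNNT1, 2.23 for TNNI1 and 2.07 for TNNC1.

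The second comparison asked the same in Pietrain, where none of the 5 slow fibre genes was a DEG. Of 12065 genes tested, 0 were called higher and 0 lower (0.00% in each direction). At an unadjusted p under 0.05 the edgeR test gave 398 genes, none of them a slow fibre gene, and DESeq2 called 1 gene, again none of the 5. The log2 fold changes were 0.48 ± 1.36 (SE) for MYH7, 0.42 ± 1.27 for MYL3, 0.15 ± 1.28 for TNNT1, 0.27 ± 1.22 for TNNI1 and 0.08 ± 1.14 for TNNC1. Their edgeR adjusted p-values were 0.966 to 0.991, and the exact permutation test (2-sided) gave p = 0.6 to 0.743. Standard errors were 1.14 to 1.36 in Pietrain and 0.27 to 0.37 in Hampshire, so a difference as large as that in Hampshire was not detectable in these pigs. Without low pig 5, all 5 values took the opposite sign, from -0.11 for MYH7 to -0.49 for TNNC1, and none was called. Without high pig 2 or high pig 7, 4 of the 5 values also turned negative, from -0.02 to -0.43.

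The third comparison tested whether the loin weight effect differed between the breeds, in 1 fit over all pigs. The difference of the log2 fold changes, Hampshire less Pietrain, was 0.72 ± 1.71 (SE) for MYH7, 1.34 ± 1.60 for MYL3, 2.01 ± 1.62 for TNNT1, 1.98 ± 1.54 for TNNI1 and 2.01 ± 1.43 for TNNC1. None of the 5 passed, at edgeR adjusted p-values of 0.448 to 0.853, while 215 of 12831 genes (1.68%) were called with a positive difference and 542 (4.22%) with a negative one. The slow fibre genes were thus not shown to respond differently in the breeds, although they were called in only 1 of them.

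Between breeds, the slow fibre genes did not differ beyond their spread at either loin weight. At low loin weight, Hampshire against Pietrain ran on the log2 scale from -0.64 ± 1.05 (SE) for TNNC1 to 0.14 ± 1.17 for MYL3, with edgeR adjusted p-values of 0.687 to 0.986. In this comparison 1006 genes (7.84%) were called higher and 1294 (10.1%) lower. Among pigs with high loin weight, all 5 genes had positive values, from 0.67 ± 1.16 for MYH7 to 2.02 ± 1.06 for TNNI1, with edgeR adjusted p-values of 0.131 to 0.658. Here 2896 genes (22.6%) were called higher and 3105 (24.2%) lower, so the absence of a slow fibre gene from the calls stood beside many calls elsewhere. Without Pietrain low pig 5, TNNI1 was called higher in Hampshire pigs with high loin weight (log2 fold change 1.96, edgeR adjusted p = 0.0341). That pig is not in the high loin weight comparison, and the log2 fold change with it was 2.02. It enters through the estimate of the spread, which the fit shares over all groups, so the SEs above include its spread. Breed coincided with the count table, so breed and any difference in handling cannot be told apart.

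**Figure D2:**
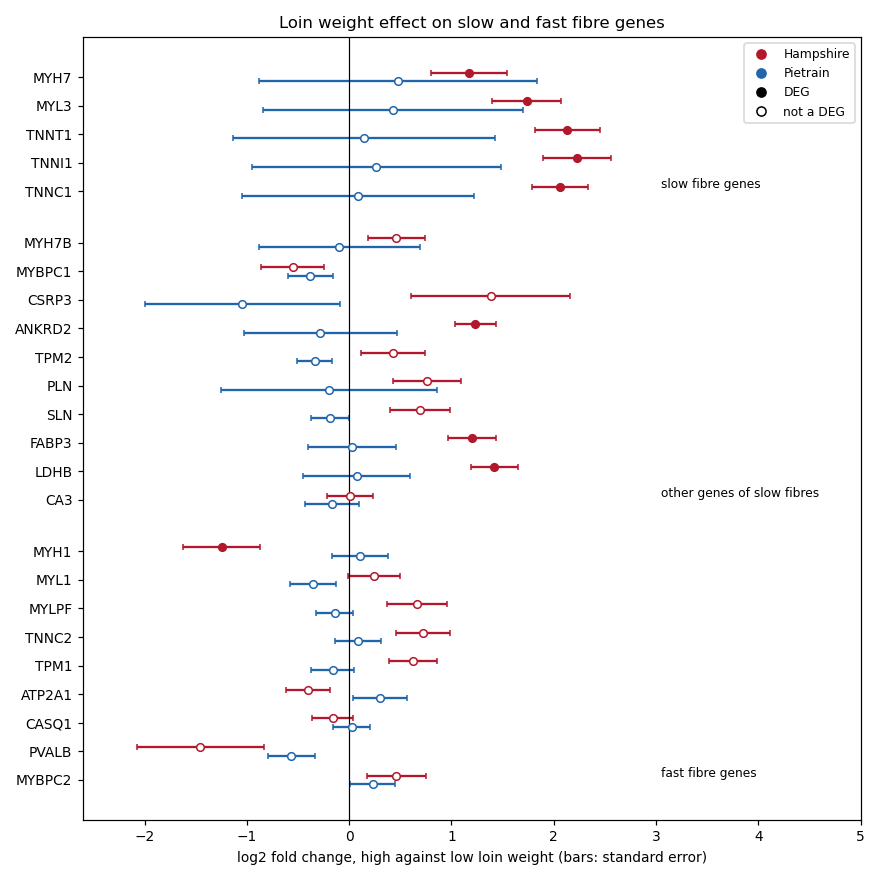
Log2 fold change of high against low loin weight (horizontal axis, bars show the standard error) for the slow fibre genes, other genes of slow fibres and fast fibre genes in Hampshire (red) and Pietrain (blue), with filled points for DEGs. The 5 slow fibre genes lie between 1.17 and 2.22 in Hampshire and between 0.08 and 0.48, with wide bars, in Pietrain.

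The spread among pigs was wide for these genes in Pietrain. In Pietrain pigs with low loin weight the SD of log2 CPM was 5.19 for MYH7, 4.95 for TNNT1, 4.60 for MYL3, 4.26 for TNNI1 and 3.74 for TNNC1. Over 12831 genes the median SD in that group was 0.295, and the 5 slow fibre genes took ranks 2 to 6 from the top. These SDs rest on low pig 5. Without it, a setting chosen after seeing the data, they were 0.138 to 0.445 over the other 2 pigs, with ranks from 2637 to 8645, beside a median of 0.225. In Pietrain pigs with high loin weight their SDs were 1.85 to 2.11, ranks 27 to 44, beside a median of 0.357. In Hampshire the SDs were 0.294 to 0.724 over both groups, beside medians of 0.263 in the high and 0.230 in the low group, with ranks from 620 to 4577.

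The low values in Pietrain low pig 5 rested on few reads in a library of 14055410 counts, the median of the 13. It held 83 reads of MYH7, 20 of MYL3, 35 of TNNT1, 48 of TNNI1 and 164 of TNNC1. The next lowest pig, Pietrain high pig 6, held 5238, 879, 2189, 1163 and 2040 reads of these genes. MYH7 was 51.8-fold, TNNT1 51.3-fold, MYL3 36.0-fold, TNNI1 19.9-fold and TNNC1 slightly over 10-fold lower in low pig 5 than in the lowest of the other 12 pigs.

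This view was chosen after the values were seen. Of 9150 genes at 1 CPM or more in all other pigs, 8 were at least 10-fold lower in low pig 5 than in the lowest other pig. Of these 8, 5 were the matched slow fibre genes. The other 3 were SMDT1, a subunit regulator of the mitochondrial calcium uniporter, and the unnamed genes ENSSSCG00000009830 and ENSSSCG00000009110. Whether an unnamed gene is one of the list genes that found no match cannot be told here. The same count was 0 to 4 in each of the other 12 pigs. Across genes, the log2 CPM of low pig 5 had a Pearson correlation of 0.947 with the median of the others, within the range of 0.904 to 0.976 of the other pigs. Fewer slow fibres in the piece of muscle sampled and less RNA per fibre cannot be told apart in such bulk samples.

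From pig to pig within groups, the levels of the 5 genes were compared with each other. After subtracting the group mean of log2 CPM, Pearson's r with MYH7 over 13 pigs was 0.994 for TNNI1, 0.993 for TNNT1, 0.988 for MYL3 and 0.986 for TNNC1. An exact permutation of pigs within groups gave p = 0.00193 to 0.00444 for these 4 relations, each 0.00444 after Benjamini-Hochberg adjustment. Spearman's rho was 0.94 to 0.973, with adjusted exact p-values of 0.00965 to 0.011. Pietrain low pigs 5 and 3 were farthest from the median of MYH7 on these centred values, pig 3 because pig 5 lowers the mean of their group. Without both, r was 0.962 to 0.985.

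Taken by breed, the relation passed the test in Pietrain and not in Hampshire, and the difference between the breeds was not tested. In the 7 Pietrain pigs r was 0.995 to 0.999 (rho 0.964 for each gene, adjusted exact permutation p = 0.0139 for r and 0.0347 for rho), and 0.985 to 0.998 without low pig 5 and high pig 6. In the 6 Hampshire pigs, whose range was narrow, r was 0.499 for MYL3, 0.504 for TNNC1, 0.741 for TNNT1 and 0.793 for TNNI1. None of the Hampshire relations passed the exact permutation test (adjusted p = 0.389 for each r), and without low pigs 1 and 2 the Hampshire r fell to between -0.212 and 0.365.

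**Figure D3:**
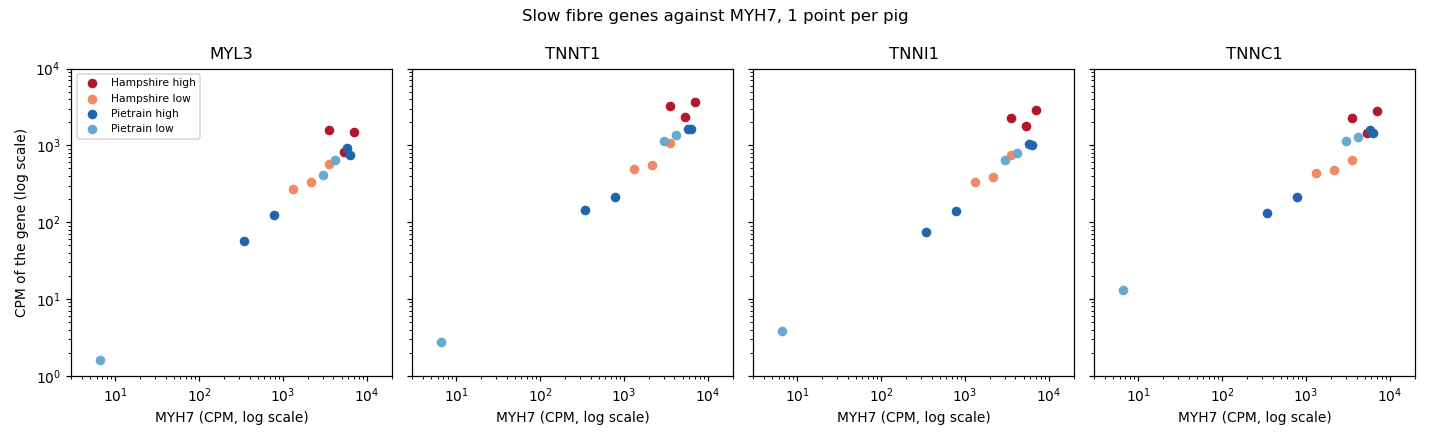
CPM of MYL3, TNNT1, TNNI1 and TNNC1 (vertical axis, log scale) against CPM of MYH7 (horizontal axis, log scale), with 1 point per pig coloured by group. The Pietrain pigs form a line from 6.57 to 6322 CPM of MYH7, and the Hampshire high pigs lie above that line for TNNT1 and TNNI1.

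Genes of other names were searched for the same pattern among 11372 genes with a mean of at least 1 CPM. The 4 other slow fibre genes took ranks 1, 2, 3 and 5 in Pearson's r with MYH7 over the group-centred values of 13 pigs. MYH7 varied most in the Pietrain low group (SD of log2 CPM 5.19), through low pig 5, so this pig weighs heavily in the ranking. No ranking without it was made. Apart from the matched members, the 5 genes most like MYH7 were ENSSSCG00000006556 (r = 0.987), ENSSSCG00000009830 (0.982), ENSSSCG00000009110 (0.979), MYH7B (0.969) and PLN (0.966). The first 3 carried no symbol in the tables used. Members were matched by symbol, so whether any of these 3 is MYL2, TPM3, ATP2A2, CASQ2 or MB cannot be told here. MYH7B encodes another slow-type myosin heavy chain, and PLN encodes phospholamban, which restrains the calcium pump of slow and cardiac muscle.

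ENSSSCG00000009830 was at 4370, 3394 and 2183 CPM in Hampshire high pigs 8, 9 and 10, and at 554 to 1250 CPM in the Hampshire low pigs. It was at 2.77 CPM in Pietrain low pig 5 and at 2227 and 2470 CPM in the other Pietrain low pigs. PLN fell in the same pig to 2.22 CPM, beside 118 and 155 CPM in the other Pietrain low pigs. In Hampshire, PLN differed by a log2 fold change of 0.76 ± 0.34 (SE, edgeR adjusted p = 0.122) and MYH7B by 0.46 ± 0.28 (edgeR adjusted p = 0.249), so neither was a DEG.

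The balance of slow to fast isoforms within a pig does not depend on scaling between libraries. MYH1 encodes the fast IIx myosin heavy chain. Its identifier, ENSSSCG00000018005 on chromosome 12 from 57967161 to 57984754 (Sscrofa10.2), is MYH1 in the authors' tables and MYH8 in the reference table. MYH2 and MYH4, which encode the other adult fast heavy chains, were not analysed here. MYH7 took 19.9%, 21.4% and 15.3% of the joint counts of MYH7 and MYH1 in Hampshire high pigs 8, 9 and 10. It took 1.68%, 7.54% and 4.42% in Hampshire low pigs 1, 2 and 3. The group means were 18.9% ± 3.20 (SD, n = 3) and 4.55% ± 2.93 (SD, n = 3), and the groups did not overlap.

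In Pietrain the MYH7 share was 1.43%, 20.1%, 1.15% and 13.4% in high pigs 1, 2, 6 and 7. It was 14.1%, 0.0147% and 8.22% in low pigs 3, 5 and 8. Pietrain high pig 2 lay within the range of the Hampshire high pigs and low pig 3 just under it, while high pigs 1 and 6 and low pig 5 lay below every Hampshire pig.

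In the light chain and troponin C pairs, too, every Hampshire high pig was above every Hampshire low pig. MYL3 had 7.06, 5.93 and 4.80 counts per 100 counts of the fast light chain gene MYL1 in Hampshire high pigs 8, 9 and 10. It had 1.22, 3.42 and 2.07 in Hampshire low pigs 1, 2 and 3. In Pietrain it ranged from 0.174 to 4.77 in the high group and from 0.00402 to 2.52 in the low group. TNNC1 had 7.85 to 14.1 counts per 100 counts of its fast counterpart TNNC2 in Hampshire high pigs and 2.59 to 6.07 in Hampshire low pigs. In Pietrain it ranged from 1.56 to 14.1 in the high group and from 0.117 to 10.4 in the low group. For each of the 3 ratios, the exact permutation test (2-sided) gave p = 0.1 in Hampshire, the smallest it can give, and 0.571 to 0.8 in Pietrain.

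In their ratio to MYH7, TNNI1 and TNNT1 were higher in every Hampshire high pig than in every Hampshire low pig. TNNI1 had 41.0, 63.8 and 33.7 counts per 100 counts of MYH7 in Hampshire high pigs 8, 9 and 10, against 25.4, 21.2 and 18.1 in low pigs 1, 2 and 3. TNNT1 had 53.4, 90.7 and 44.7 counts per 100 of MYH7 in the Hampshire high pigs, against 37.2, 29.8 and 26.4 in the low pigs. The exact permutation p was 0.1 for both ratios, the smallest that 3 pigs against 3 can give, and high pig 9 had the highest value in both. The part of the fall of fold changes with gene span in Hampshire in these ratios was not tested. MYL3 (exact permutation p = 0.4) and TNNC1 (exact permutation p = 0.2) overlapped between the groups in their ratio to MYH7.

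In Pietrain the ratio of TNNI1 to MYH7 was 16.1 to 22.2 per 100 in 6 of the 7 pigs and 57.8 per 100 in low pig 5, where it rests on 48 and 83 reads. The ratio of TNNI1 to TNNT1 was steadier, at 68.3 to 76.8 per 100 over the 6 Hampshire pigs and 53.1 to 65.9 per 100 over 6 Pietrain pigs. In low pig 5 it was 137 per 100.

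**Figure D4:**
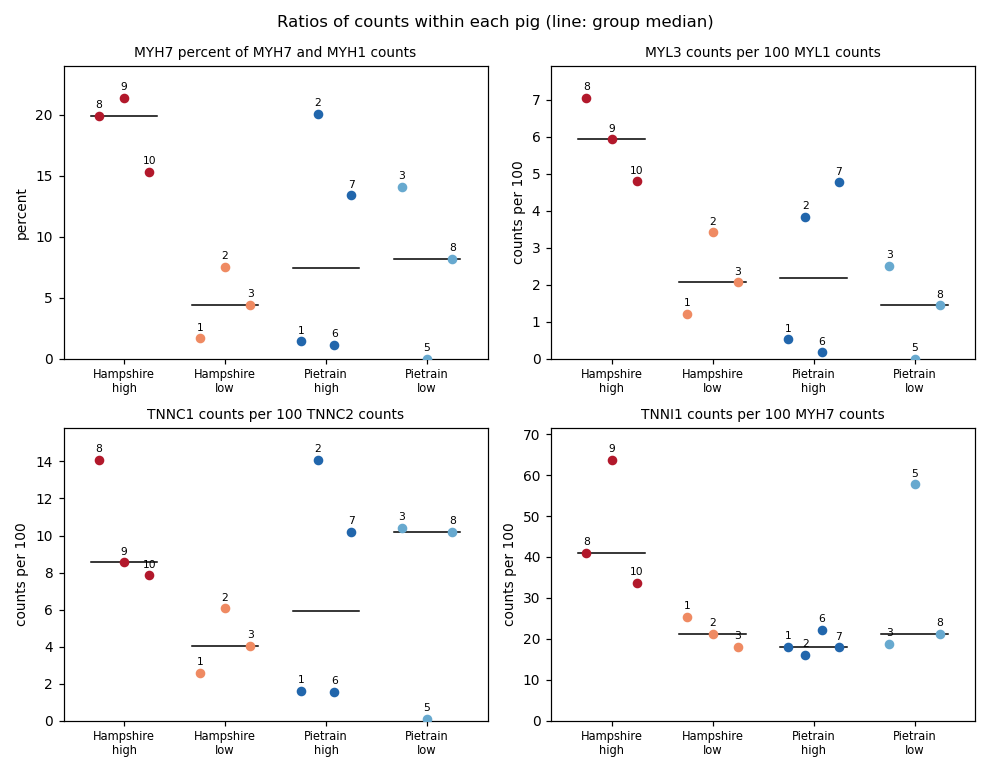
Ratios of counts within each pig by group, with pig numbers and group medians: MYH7 as a percent of MYH7 and MYH1 counts, MYL3 per 100 MYL1, TNNC1 per 100 TNNC2 and TNNI1 per 100 MYH7. Hampshire high pigs lie above Hampshire low pigs in all 4 panels, and Pietrain low pig 5 is near 0 in the first 3.

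Other genes of slow fibres rose in part. Of 10 genes of this list that were tested in Hampshire, 3 were DEGs with higher and 0 with lower expression in pigs with high loin weight, beside 12.0% and 14.6% of all genes tested, and 7 did not pass. Their median log2 fold change was 0.726, beside 0.0289 over all genes. LDHB, the lactate dehydrogenase subunit of oxidative tissue, was at 83.9, 87.7 and 62.6 CPM in high pigs 8, 9 and 10 and at 24.1, 39.0 and 24.0 CPM in low pigs 1, 2 and 3. Its log2 fold change was 1.42 ± 0.23 (SE, edgeR adjusted p = 0.0049). The identifier named LDHB by the authors, ENSSSCG00000013171, spans only 1282 bp on chromosome 2, and whether it is the complete gene cannot be told here.

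ANKRD2, a stretch-responsive ankyrin repeat protein, differed by 1.23 ± 0.20 on the log2 scale (edgeR adjusted p = 0.0049). FABP3, the fatty acid carrier of heart and oxidative muscle, differed 2.30-fold (edgeR adjusted p = 0.00863). The identifier named FABP3 by the authors also has a short span, 1495 bp, and whether it is the complete gene cannot be told here. Groups did not overlap for these 3 genes, which had been picked as DEGs, beside 22.4% of all genes in that direction. In Pietrain none of the 10 passed, and ANKRD2 was at 4.67 CPM in low pig 5, below the 11.1 to 63.3 CPM of the other Pietrain pigs.

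Of 9 fast fibre genes tested in Hampshire, only MYH1 was a DEG, and it was lower in pigs with high loin weight, as were 1788 genes (14.6%) of those tested. MYH1 was at 27928, 13072 and 29391 CPM in high pigs 8, 9 and 10 and at 76490, 43782 and 46059 CPM in low pigs 1, 2 and 3. The log2 fold change was -1.25 ± 0.37 (SE, edgeR adjusted p = 0.0390). A lower level without overlap was found in 2872 genes (23.5%). The other 8 fast fibre genes did not pass, among them TNNC2 at 0.72 ± 0.27 (edgeR adjusted p = 0.0735) and MYL1 at 0.24 ± 0.25 (edgeR adjusted p = 0.505), so the list did not move in 1 direction. In Pietrain, 0 of the 9 were called, and MYH1 differed by 0.10 ± 0.27 (edgeR adjusted p = 0.963).

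Regulators of fibre type mostly had the opposite sign to the slow fibre genes in Hampshire. Of 18 tested, 14 had values below 0, and 1 was higher and 8 were lower as DEGs at high loin weight. Over all genes tested, 51.6% had values above 0, and 12.0% were called higher and 14.6% lower. Their median was -0.513 on the log2 scale. PPP3CA encodes a catalytic subunit of the phosphatase calcineurin, which is known to promote slow fibre genes. It was at 9.60, 5.27 and 5.31 CPM in high pigs and 36.2, 33.1 and 37.9 CPM in low pigs. PPP3CA differed by -2.41 ± 0.25 on the log2 scale (SE, edgeR adjusted p = 0.00128). PPP3CB, another catalytic subunit, was at 177 to 257 CPM in high and 303 to 386.5 CPM in low pigs. It differed less, by -0.71 ± 0.20 (edgeR adjusted p = 0.0283). ESRRG, an oestrogen-related receptor active in oxidative muscle, differed by -2.42 ± 0.55 (edgeR adjusted p = 0.0146). Its levels were low, at 0.409 to 2.45 CPM (6 to 27 reads) in high and 5.27 to 8.20 CPM in low pigs. PPARGC1A, a coactivator of mitochondrial and slow fibre genes, differed by -1.74 ± 0.38 (edgeR adjusted p = 0.0131). Its levels were low too, at 1.98 to 3.36 CPM (29 to 37 reads) in high and 4.76 to 11.8 CPM in low pigs. VGLL2, a cofactor of the TEAD factors in muscle, was higher, by 0.56 ± 0.18 (edgeR adjusted p = 0.0488). Log2 fold changes in Hampshire fell with gene span in general (Spearman's rho = -0.386 across 9945 genes with coordinates). PPP3CA, ESRRG and PPARGC1A span 337047, 179092 and 42223 bp, beside a median of 18949 bp, and VGLL2 had no coordinates. The part of gene span in the values of the regulators was not tested.

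In Pietrain, 0 of 19 regulators were called. Of the developmental and cardiac isoforms, 3 were tested in each breed (MYH3, TNNT2 and ACTC1) and 0 were called. Groups without overlap were rare in Pietrain, at 251 genes (2.08%) with higher and 303 genes (2.51%) with lower levels in pigs with high loin weight. None of the 5 slow fibre genes was among them.

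Other features of the Hampshire libraries moved with loin weight beside the slow fibre genes. Log2 fold changes fell with the span of the gene (Spearman's rho = -0.386 across 9945 genes with coordinates, beside -0.0893 in Pietrain; genes are not independent replicates). With this trend removed, MYH7 was still a DEG, at a log2 fold change of 1.21 (edgeR adjusted p = 0.0414), and the other 4 genes, without coordinates, could not be fitted. Counts of marker genes called here stand beside the 12.0% of all genes called higher. Fibroblast genes (COL1A2, COL3A1, DCN and PDGFRA) summed to 1783 to 4589 CPM in high and 669 to 1485 CPM in low pigs, and 3 of these 4 were DEGs. Smooth muscle genes summed to 205 to 341 CPM in high and 136 to 164 CPM in low pigs, with 2 of 4 as DEGs. Macrophage genes summed to 64.0 to 92.0 CPM in high and 24.6 to 48.4 CPM in low pigs, with 1 of 4 as a DEG. Adipocyte genes PLIN1 and CIDEC summed to 6.74 to 29.0 CPM in high and 1.61 to 5.20 CPM in low pigs, with CIDEC as a DEG. Endothelial genes overlapped, at 131 to 146 and 104 to 142 CPM, and none of the 3 was a DEG. Erythroid genes overlapped too, at 82.1 to 238 and 45.3 to 173 CPM, without a DEG among the 2, as did the Schwann cell genes, at 0.320 to 2.54 and 0.146 to 2.33 CPM, of which 1 was tested and was no DEG. TNMD, the only tendon gene matched, was at 1.27 to 1.91 CPM in high pigs and 0 to 0.0486 CPM in low pigs, and was a DEG. The part of these features in the slow fibre result was not tested.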

How the data were processed

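RNA-seq libraries of longissimus lumborum from 13 pigs were compared between high and low loin weight within Hampshire and within Pietrain, and between the breeds. The deposited values are raw counts per Ensembl gene, which the authors did not normalize, on Sscrofa10.2. The submitters' processing notes name FastQC, STAR, RSEM and DESeq2, with no versions, and the libraries came from a kit that does not mark strand. The deposited tables of fold changes and p-values were not used, apart from gene symbols and coordinates. Of 25322 identifiers, 13168 had a symbol, from the authors' tables or from a RefSeq table of another assembly used for names only.

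Counts were scaled by TMM and filtered with filterByExpr, and tested with edgeR 4.0.16 (glmQLFit and glmQLFTest) in R 4.3.3. DEGs had a Benjamini-Hochberg adjusted p under 0.05 over all genes tested and a fold of at least 1.2. Standard errors came from the log2 fold change and its F statistic. Breeds were fitted separately for loin weight. 1 fit over all pigs gave the difference between breeds and the breed comparisons. Exact permutation tests used log2(CPM + 0.5). The tests were checked on simulated data. Total counts per pig were 11312755 to 20134612, and their counting error was small beside the differences between pigs.

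The members and lists were chosen with earlier results of these data known. Lists covered fast fibre genes, other genes of slow fibres, fibre type regulators, developmental and cardiac isoforms, and markers of skeletal, cardiac and smooth muscle, adipocytes, fibroblasts, endothelium, macrophages, erythroid cells, tendon and Schwann cells. Named were all members, MYH1, MYH2 and MYH4, up to 3 DEGs with the largest fold per list and direction in Hampshire, and the 5 genes most like MYH7. Genes such as PLN, MYL1, TNNC2, PPP3CB and the markers were named after their values were seen. Alternatives were DESeq2 1.42.0, other scalings and filters, no fold threshold, removal of the length trend, another sample set, leaving out each pig, and a pseudocount of 2. Plots used matplotlib 3.10.9 (Python 3.11.15).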

Additional observations from a re-analysis of the deposited data

Results flagged for a closer look

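Among the genes of the lists, the loin weight effect differed between the breeds for 3, by the edgeR test of the difference over all 13 pigs. By list, these were 1 of 19 regulators and 2 of 4 smooth muscle genes tested, and no gene of the other lists was called. Over all 12831 genes tested, 215 (1.68%) were called with a positive and 542 (4.22%) with a negative difference. PPP3CA, a calcineurin catalytic subunit, had a difference of -2.48 ± 0.34 on the log2 scale (SE, Hampshire less Pietrain, edgeR adjusted p = 0.00251). It was at 5.27 to 9.60 CPM in the Hampshire high group and at 33.1 to 55.0 CPM in all other groups. The part of its span of 337047 bp in this difference was not tested. For PPP3CB, another catalytic subunit, the difference was -0.40 ± 0.32 (edgeR adjusted p = 0.509) and was not called. The smooth muscle actin gene ACTA2 had a difference of 1.32 ± 0.35 (edgeR adjusted p = 0.0402). TAGLN, a gene of the smooth muscle cytoskeleton, had a difference of 1.38 ± 0.33 (edgeR adjusted p = 0.0265). Both were higher in Hampshire pigs with high loin weight, while in Pietrain their log2 fold changes were -0.47 ± 0.27 and -0.23 ± 0.24, neither of them called. None of the 5 slow fibre genes showed such a difference.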

How the results depend on the processing

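In Hampshire, DESeq2, DESeq2's size factors, no filter on low counts and no fold threshold each called 5 slow fibre genes. Scaling by total counts, or requiring 10 counts in each pig, called 4. The 1 fit over all pigs called 0, and with the length trend removed 1 was called, since only MYH7 had coordinates. Leaving out each pig gave 4 to 5 calls. The Hampshire log2 fold changes kept their sign under every alternative run, MYH7 from 0.84 to 1.60 and TNNI1 from 1.96 to 2.67. In Pietrain, in the difference between breeds and in the breed comparison at low loin weight, 0 were called under every alternative. At high loin weight the breed comparison gave 0 to 1 calls when each pig was left out.

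Reversed signs arose only when a pig was left out, among uncalled values, and the cause was not tested. Over these fits the Pietrain log2 fold change ran from -0.11 to 1.16 for MYH7, from -0.17 to 1.21 for MYL3, from -0.44 to 0.70 for TNNT1, from -0.31 to 0.85 for TNNI1 and from -0.49 to 0.61 for TNNC1. The highest values came without low pig 3. The difference between breeds for MYH7 ran from -0.036 (without Pietrain low pig 3) to 1.26. In the breed comparison at low loin weight, MYH7 ran from -0.64 to 0.67, MYL3 from -0.45 to 0.95, TNNT1 from -0.83 to 0.34 and TNNI1 from -0.56 to 0.65, the lowest without Pietrain low pig 5 and the highest without Pietrain low pig 3. A pseudocount of 2 changed no call of the correlations or permutation tests. The share of MYH7 per protein length was not run, since no lengths were used here. No paired analysis was possible because the high and low groups of a breed share no pig number.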

Other observations

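The unnamed gene ENSSSCG00000006556 had the pattern over pigs closest to MYH7 apart from the matched members. It was at 1120, 820.5 and 654 CPM in Hampshire high pigs 8, 9 and 10 and at 175, 336 and 211 CPM in low pigs 1, 2 and 3. Its log2 fold change in Hampshire was 1.84 ± 0.28 (SE, edgeR adjusted p = 0.00429). It was at 11.9 CPM in Pietrain low pig 5, beside 535 and 558 CPM in the other Pietrain low pigs. PPARGC1A, the coactivator of mitochondrial and slow fibre genes, was at 170.7 CPM in Pietrain low pig 5, the pig that nearly lacked reads of the slow fibre genes, beside 201 and 180.4 CPM in the other Pietrain low pigs. In Pietrain high pig 7, which had 5804 CPM of MYH7, PPARGC1A was at 5.55 CPM, the lowest of the breed. PPARGC1A is 1 of 19 matched regulators, and these did not move together in low pig 5. ESRRG was lower there, at 0.554 CPM (7 reads), beside 2.55 and 2.35 CPM in the other Pietrain low pigs. MEF2A was higher there, at 265.5 CPM, beside 147.7 and 185.7 CPM. The relation of the regulators to the slow fibre genes in single pigs was not tested.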
